A study of Mus musculus with 6 samples.

Results

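The major histocompatibility complex (MHC) genes and the machinery that loads peptides onto their products were followed in mouse chondrocytes with and without Uhrf1. Members were the entries of the deposited gene table whose symbol begins with H2- (44 entries), plus 18 genes of antigen processing, peptide loading and MHC transcription chosen by name, 62 of 23351 entries in all. Primary chondrocytes were isolated on postnatal day 3 from the knees of C57BL/6 mice. For 24 hours, confluent cultures received 100 ng/ml rhBMP-2, a recombinant bone morphogenetic protein. RNA was sequenced in 3 libraries from Uhrf1 conditional knockout (cKO) mice, named Uhrf1 cKO 1 to 3, and 3 libraries from Control mice, named Control 1 to 3. Age, strain and BMP-2 treatment were the same in both groups, and cultures without BMP-2 were not analysed here. The sources used here name neither the deleted exons, the Cre line, the genotype of the Control mice nor the number of animals behind a library. Uhrf1 encodes a protein that reads hemimethylated DNA after replication and recruits the maintenance methyltransferase Dnmt1.

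MHC class I molecules are a polymorphic heavy chain paired with beta-2-microglobulin. They show peptides cut by the proteasome to CD8+ T cells, and almost every nucleated cell makes some. Interferon exchanges catalytic subunits of the proteasome for inducible ones, raises the peptide transporter of the endoplasmic reticulum and induces Nlrc5, the transactivator of class I genes. Class II molecules show peptides from endosomes to CD4+ T cells, need the transactivator Ciita, and are normally restricted to professional antigen-presenting cells. Chondrocytes are not professional antigen-presenting cells.

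The promoters of class I heavy chain genes are known to carry a block of short motifs just before the transcription start, and they are shown here because these genes moved together. The sequences are from RefSeq (GRCm38.p6, the assembly that mm10 denotes) and run 5′ to 3′ on the gene's own strand, ending at the base before the start. Capitals mark, on either strand, TGACG (the core of the X2 element), CCAAT (the Y element), GGGA and CC with any 4 bases between them (a kappaB-type pattern), and GAAA and GAAA with any 2 bases between them (the core of the interferon-stimulated response element, ISRE). Adjacent or overlapping matches run together. The first 6 stretches belong to heavy chain genes called higher in Uhrf1 cKO cells and the next to B2m.
H2-K1 (chr17:34000334-34000513, minus strand): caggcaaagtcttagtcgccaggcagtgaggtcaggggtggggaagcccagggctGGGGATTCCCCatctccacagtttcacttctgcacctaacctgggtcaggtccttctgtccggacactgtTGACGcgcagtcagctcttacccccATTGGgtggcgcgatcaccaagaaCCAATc
H2-D1 (chr17:35262914-35263093, plus strand): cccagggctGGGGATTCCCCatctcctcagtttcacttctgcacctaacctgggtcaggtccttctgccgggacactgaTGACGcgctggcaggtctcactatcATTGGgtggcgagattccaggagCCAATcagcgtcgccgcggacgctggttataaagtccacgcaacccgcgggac
H2-Q4 (chr17:35379437-35379616, plus strand): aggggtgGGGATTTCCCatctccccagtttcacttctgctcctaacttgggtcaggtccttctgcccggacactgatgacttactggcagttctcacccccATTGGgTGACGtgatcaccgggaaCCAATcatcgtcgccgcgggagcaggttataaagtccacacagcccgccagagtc
H2-Q7 (chr17:35438975-35439154, plus strand): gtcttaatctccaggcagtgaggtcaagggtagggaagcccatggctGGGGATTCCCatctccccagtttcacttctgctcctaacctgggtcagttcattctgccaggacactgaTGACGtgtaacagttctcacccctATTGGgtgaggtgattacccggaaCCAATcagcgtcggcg
H2-M3 (chr17:37270054-37270233, plus strand): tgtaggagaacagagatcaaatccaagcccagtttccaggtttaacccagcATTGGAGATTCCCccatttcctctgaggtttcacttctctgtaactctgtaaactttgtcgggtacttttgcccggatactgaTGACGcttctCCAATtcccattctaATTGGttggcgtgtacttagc
H2-T23 (chr17:36032702-36032881, minus strand): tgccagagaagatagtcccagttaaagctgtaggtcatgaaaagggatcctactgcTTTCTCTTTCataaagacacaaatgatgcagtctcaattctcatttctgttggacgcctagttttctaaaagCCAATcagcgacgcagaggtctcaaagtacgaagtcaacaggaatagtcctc
B2m (chr2:122147507-122147686, plus strand): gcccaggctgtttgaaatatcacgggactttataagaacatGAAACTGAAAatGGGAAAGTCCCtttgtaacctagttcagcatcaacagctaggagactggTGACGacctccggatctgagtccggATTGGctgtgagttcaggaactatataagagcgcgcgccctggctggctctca
The next stretch is the whole interval between Psmb9, read to the left, and Tap1, read to the right, by their ends in the deposited gene table. In GENCODE these genes overlap (Psmb9 to 34187764, Tap1 from 34187553). The stretch after it lies before Psmb8. In both stretches, TTC and GAA with any 3 bases between them, the gamma-interferon activation site pattern (GAS), is also in capitals. It was present in 9.55% of all genes' windows.
Tap1 (chr17:34187331-34187555, plus strand): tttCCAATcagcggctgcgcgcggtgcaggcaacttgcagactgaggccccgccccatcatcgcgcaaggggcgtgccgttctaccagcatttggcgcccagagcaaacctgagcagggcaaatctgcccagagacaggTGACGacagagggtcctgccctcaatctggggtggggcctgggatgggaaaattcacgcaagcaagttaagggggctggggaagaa
Psmb8 (chr17:34198045-34198194, plus strand): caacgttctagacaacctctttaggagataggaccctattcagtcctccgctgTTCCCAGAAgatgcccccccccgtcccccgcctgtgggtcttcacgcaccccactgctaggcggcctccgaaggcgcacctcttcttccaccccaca
The last stretch is from H2-M10.1, a class I-like gene listed at 0 in all 6 libraries, for comparison.
H2-M10.1 (chr17:36326151-36326330, minus strand): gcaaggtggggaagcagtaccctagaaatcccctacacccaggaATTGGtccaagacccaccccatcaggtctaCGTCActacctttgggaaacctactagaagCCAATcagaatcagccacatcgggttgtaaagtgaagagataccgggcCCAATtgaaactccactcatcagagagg

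Of the 62 members, 42 symbols had a window of 300 bases (250 before and 50 after the start) in the RefSeq table, as did 27025 genes in all. CCAAT was present in 11 of the 16 windows of genes called higher, in 5 of 5 of members tested and not called and in 18 of 21 of members too low to test. It was present in all 7 heavy chain and B2m windows of genes called higher, TGACG in 6 of 7 and the kappaB-type pattern in 6 of 7, against 41.1%, 23.05% and 22.9% of all genes. Over all members, TGACG was present in 9 of 16 called higher, 1 of 5 not called and 6 of 21 too low to test. The kappaB-type pattern was present in 6 of 16, 2 of 5 and 5 of 21, so its share was similar in called and uncalled members. TGACG followed by CCAAT, each on either strand, was counted at 20 to 30 bases from first base to first base. This spacing was chosen after these windows were seen. Such a pair was found in H2-K1, H2-D1, H2-Q7, H2-M3 and B2m, and in 0.918% of all genes. In these named genes it read TGACG then ATTGG, at a spacing of 24 or 25. A pair was also found in H2-Aa and in 4 of the 6 H2-M10 genes, which were at or near 0 in all libraries. In H2-M10.1 it read CGTCA then CCAAT, both in the reverse orientation, at a spacing of 30, and so was not the same arrangement. H2-T22, whose entry was not called, held TGACG, the kappaB-type pattern and the ISRE core. The ISRE core in these exact letters was present in H2-T23, B2m, Psme1 and Erap1 among the 16 called genes with a window, against 3.99% of all genes. Variants of it, such as the unmarked tttcacttc in the H2-K1, H2-D1, H2-Q4, H2-Q7 and H2-M3 stretches, were not searched for. A window without a match may therefore still hold an ISRE. CpG dinucleotides, the substrate of Uhrf1-dependent methylation, numbered 3 to 19 per window with a median of 12 in the 16 called genes. They numbered 8 to 29 with a median of 16 in the 5 members tested and not called, 0 to 19 with a median of 2 in the 21 members too low to test, and had a median of 8 over all genes. These matches describe letters in the windows and not bound or methylated sites.

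Levels are in FPKM, fragments scaled to transcript length and library size, 1 value per gene and library. Relative depth, read from the value steps of low genes with Control 1 set to 1, was 0.863 to 0.968 in the Uhrf1 cKO and 0.937 to 1.01 in the other Control libraries, while absolute depth is unknown. The targeted gene Uhrf1 stood at 3.22, 3.17 and 2.73 FPKM in the Uhrf1 cKO libraries, against 28.2, 22.9 and 30.6 FPKM in the Control libraries. All Uhrf1 cKO libraries lay below all Control libraries, with means of 3.04 ± 0.273 FPKM in Uhrf1 cKO and 27.2 ± 3.97 FPKM in Control cells (SD, n = 3 each), 8.96-fold lower (limma adjusted p = 1.7e-06). All 10 chondrocyte markers in the table were detected, with sums of 7867 to 8750 FPKM in Uhrf1 cKO and 11769 to 15270 FPKM in Control libraries. Limma called 8 of them lower, against 7.96% of all tested genes. The authors' deposited table called 7 of them lower and did not call Col2a1 (q = 0.457). The part of bulk values set by fewer cells of a type and the part set by less RNA per cell cannot be told apart. Of 8 lymphocyte markers all were listed at 0 in all 6 libraries, and 6 endothelial markers summed to 0.352 to 0.943 FPKM in Uhrf1 cKO and 0.200 to 0.363 FPKM in Control libraries. Of 13 myeloid and dendritic markers, Itgax, Flt3 and Cd209a were at 0 throughout, and the sum was 27.3 to 39.8 FPKM in Uhrf1 cKO and 9.95 to 54.2 FPKM in Control libraries. Limma tested 6 of them and called 1 higher and none lower, against 9.81% and 7.96% of all tested genes. The called marker was Fcer1g, at 18.2, 11.5 and 17.9 FPKM in the Uhrf1 cKO libraries, against 0, 0.702 and 0 FPKM in the Control libraries. Fcer1g was tested only through its Uhrf1 cKO level and not called in the authors' deposited table (q = 0.335). Lyz2 stood at 7.41, 9.56 and 11.97 FPKM in the Uhrf1 cKO libraries, against 46.6, 22.9 and 7.02 FPKM in the Control libraries. These overlapped and limma did not call Lyz2 (adjusted p = 0.361), while the authors' deposited table called it lower (q = 0.000520). Emr1 was at most 0.117 FPKM in Uhrf1 cKO and 0.760 FPKM in Control libraries, too low to test. The part of such cells in the results below was not tested. Library labels carry a different prefix in each group, whose meaning is not stated, and it and genotype cannot be told apart. The Y-linked gene Ddx3y was present in cKO 1, Control 1 and Control 3 and at 0 in the others.

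Among the members, class I heavy chains, beta-2-microglobulin, the peptide transporter, the inducible proteasome subunits and Nlrc5 were higher in Uhrf1 cKO cells. Of the 62 members, 32 reached 1 FPKM in at least 2 libraries and were tested, 22 were called higher and none lower (limma on log2(FPKM + 1), Benjamini-Hochberg adjusted p under 0.05 over all 11911 genes tested). Over all tested genes 9.81% were called higher and 7.96% lower, 1168 and 948 genes, or 1039 and 1282 after scaling the libraries to a common median. Of the 32, 5 reached the filter only by their level in Uhrf1 cKO cells (Nlrc5, Psmb9, H2-Q5, H2-T10 and the joint entry H2-Q7,H2-Q9). Passing in this way favours an upward difference. Without these members 17 of 27 were called higher. With every gene above 0 in any library tested, 22 of 46 members were called higher and none lower, against 7.12% and 4.87% of all genes. The median difference was 1.12 on the log2 scale for the 32 members and 0.00039 for all tested genes. The groups did not overlap for 23 of the 32 members, all with Uhrf1 cKO above Control, against 18.4% of all tested genes. The authors' deposited test, run on 27 members, called 18 higher and 1 lower, against 11.7% and 11.2% of all genes it was run on. Among the 22 members called higher, cKO 3 was the highest Uhrf1 cKO library for 18 and Control 3 the highest Control library for 13. Nothing in the labels says that the libraries came from separate animals, so p-values measure the spread between these libraries, which may be technical.

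**Figure D1:**
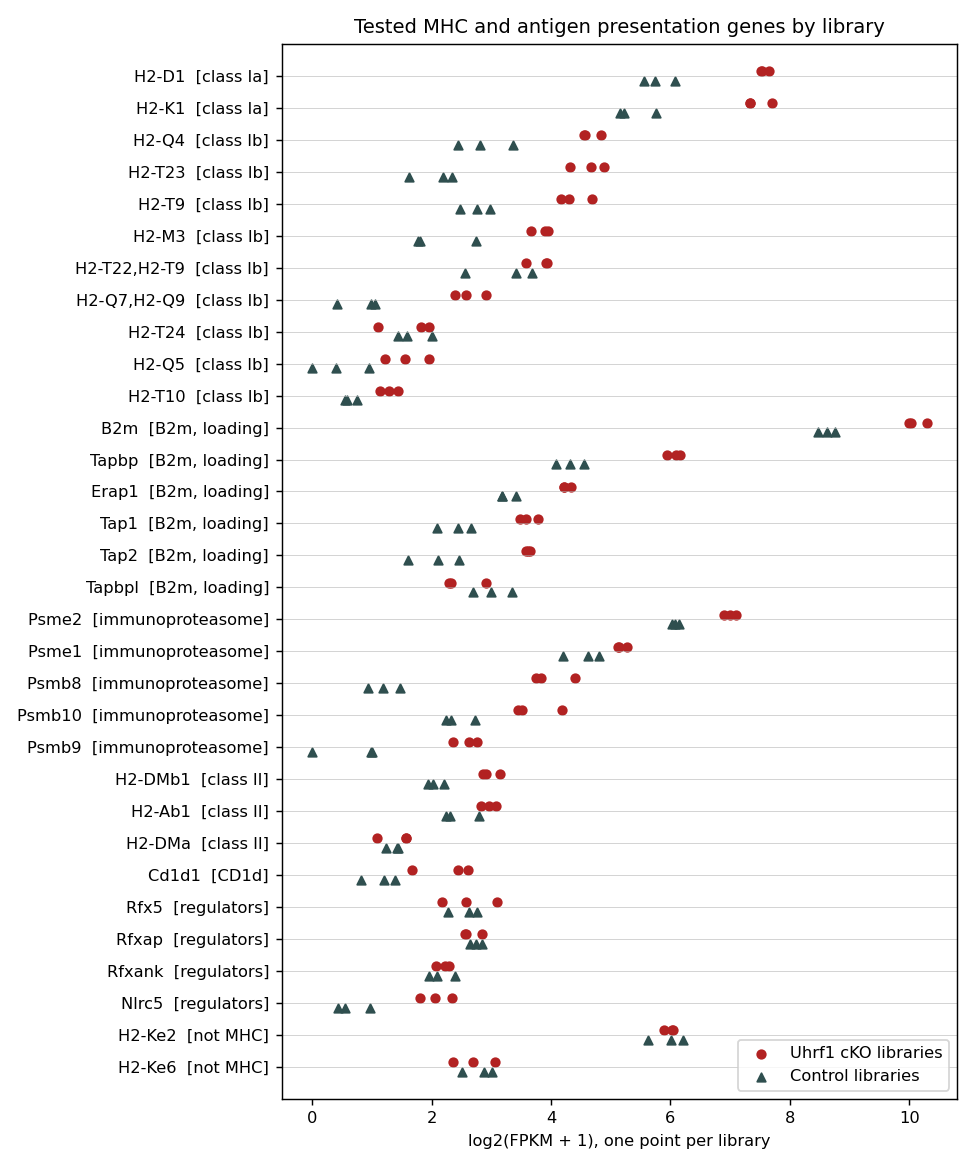
Level of each of the 32 tested members in each library on the log2(FPKM + 1) scale, grouped by role, with circles for the 3 Uhrf1 cKO and triangles for the 3 Control libraries. The circles lie to the right of the triangles without overlap for 23 members. They mix with them for most regulators and for H2-Ke2, H2-Ke6, H2-T24, H2-DMa, Tapbpl and the joint entry H2-T22,H2-T9.

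The classical class I heavy chains H2-K1 and H2-D1, which present peptides to CD8+ T cells, rose. H2-K1 (chromosome 17, 33996012 to 34000333, mm10 build, protein-coding, minus strand) stood at 159.8, 161 and 208 FPKM in the Uhrf1 cKO libraries, against 36.3, 34.8 and 53.2 FPKM in the Control libraries. All Uhrf1 cKO libraries were far above all Control libraries, and cKO 3 and Control 3 were the highest of their groups. The means were 176 ± 27.2 FPKM in Uhrf1 cKO and 41.4 ± 10.2 FPKM in Control cells (SD, n = 3 each), 4.25-fold apart, with a log2 difference of 2.08 (standard error 0.163, limma adjusted p = 3.72e-05). H2-D1 (chromosome 17, 35263094 to 35267497, plus strand) stood at 184, 182 and 200.2 FPKM in the Uhrf1 cKO libraries, against 45.8, 52.2 and 66.5 FPKM in the Control libraries. Its groups were as clearly apart, at 3.44-fold, with a log2 difference of 1.78 (standard error 0.124, limma adjusted p = 1.73e-05). H2-K1 was 86.9, 88.3 and 104% of H2-D1 in the Uhrf1 cKO libraries, against 79.3, 66.6 and 80.0% in the Control libraries. These shares did not overlap, with an exact two-sided permutation p = 0.1, the smallest that 3 against 3 libraries can give. H2-L, listed on the same interval as H2-D1, was at 3.91 FPKM in cKO 2 and at 0 in the other libraries. The sources used here do not say how reads were divided between such similar genes.

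Of 29 class Ib entries, the less polymorphic relatives of the classical chains, 9 were tested and 7 rose. The highest fitted difference among them was that of H2-T23, which encodes Qa-1, a ligand of the NK cell receptor CD94/NKG2A. H2-T23 stood at 19.0, 24.4 and 28.6 FPKM in the Uhrf1 cKO libraries, against 3.56, 2.05 and 4.05 FPKM in the Control libraries. The means differed 7.44-fold and on the log2 scale by 2.58 (standard error 0.207, limma adjusted p = 4.11e-05). H2-T24, listed on the same interval, stood at 2.52, 2.89 and 1.15 FPKM in the Uhrf1 cKO libraries, against 1.71, 2.99 and 1.99 FPKM in the Control libraries, and its groups overlapped (limma adjusted p = 0.920). H2-Q4, of the Qa region, stood at 22.3, 22.7 and 27.4 FPKM in the Uhrf1 cKO libraries, against 4.44, 5.99 and 9.33 FPKM in the Control libraries, 3.67-fold higher (limma adjusted p = 0.000459). H2-M3, which presents N-formylated peptides, stood at 13.9, 11.6 and 14.5 FPKM in the Uhrf1 cKO libraries, against 2.50, 2.41 and 5.68 FPKM in the Control libraries. Control 3 was well above the other Control libraries, and the Uhrf1 cKO libraries all lay above it (3.78-fold in mean, limma adjusted p = 0.00123). 

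Several class Ib entries belong to closely similar copies. H2-T22 encodes a ligand of some gamma-delta T cells. The joint entry H2-Q7,H2-Q9, which encodes the Qa-2 antigens, stood at 4.26, 4.92 and 6.53 FPKM in the Uhrf1 cKO libraries, against 0.327, 1.08 and 0.967 FPKM in the Control libraries. It had a log2 difference of 1.81 (standard error 0.220, limma adjusted p = 0.000557), and no fold is given against a Control mean under 1 FPKM. H2-T9 stood at 16.9, 18.6 and 24.8 FPKM in the Uhrf1 cKO libraries, against 5.75, 4.57 and 6.84 FPKM in the Control libraries, 3.52-fold higher (limma adjusted p = 0.000213). The joint entry H2-T22,H2-T9 on the same interval stood at 14.1, 14.2 and 10.9 FPKM in the Uhrf1 cKO libraries, against 9.68, 4.86 and 11.8 FPKM in the Control libraries. Its groups overlapped and it was not called (limma adjusted p = 0.148), though it was with a covariate for Y-linked transcript (adjusted p = 0.0358). Summed, an alternative chosen after the data were seen, the 2 entries gave 31.0, 32.8 and 35.7 FPKM in the Uhrf1 cKO libraries, against 15.4, 9.42 and 18.6 FPKM in the Control libraries, with a log2 difference of 1.19 (limma adjusted p = 0.00349). H2-Q5 and H2-T10, which GENCODE lists as polymorphic pseudogenes, were low. H2-Q5 stood at 2.88, 1.93 and 1.31 FPKM in the Uhrf1 cKO libraries, against 0.311, 0 and 0.922 FPKM in the Control libraries, and its call (limma adjusted p = 0.0238) was lost without cKO 1, cKO 2, Control 1 or Control 2 (adjusted p = 0.0585 to 0.0865). H2-T10 stood at 1.19, 1.42 and 1.69 FPKM in the Uhrf1 cKO libraries, against 0.687, 0.490 and 0.451 FPKM in the Control libraries, and its call (limma adjusted p = 0.0388) was lost without any 1 of the 6 libraries (adjusted p = 0.0552 to 0.126) and with a covariate for Y-linked transcript (adjusted p = 0.0795).

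The remaining 20 class Ib entries were too low to test. Of these, 11 were at 0 in all libraries, namely H2-M1, H2-M2, H2-M9, H2-M11, H2-Q1, H2-T3 and all H2-M10 genes but H2-M10.2. The other 9 were H2-Bl, H2-K2, H2-M5, H2-M10.2, H2-Q2, H2-Q8, H2-Q9, H2-Q10 and the joint entry H2-Q6,H2-Q8. The joint entry reached 2.25, 0.802 and 0.816 FPKM in the Uhrf1 cKO libraries, against 0.386, 0.414 and 0 FPKM in the Control libraries, and the other 8 were at most 0.938 FPKM (H2-Bl in Control 3). An exact 0 may be a failed estimate.

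Beta-2-microglobulin, the invariant light chain of class I, was the most abundant member. B2m (chromosome 2, 122147686 to 122153083, GENCODE, plus strand) stood at 1046, 1025 and 1255 FPKM in the Uhrf1 cKO libraries, against 393, 354 and 430.0 FPKM in the Control libraries. All Uhrf1 cKO libraries lay above all Control libraries, with means of 1108 ± 127 FPKM in Uhrf1 cKO and 392.2 ± 38.1 FPKM in Control cells (SD, n = 3 each), 2.83-fold apart, and a log2 difference of 1.495 (standard error 0.101, limma adjusted p = 1.34e-05). The table's interval for B2m also holds Trim69 and Patl2. H2-K1 and H2-D1 together came to 32.9, 33.5 and 32.5% of B2m in the Uhrf1 cKO libraries, against 20.9, 24.6 and 27.8% in the Control libraries. The shares did not overlap between the groups (exact two-sided permutation p = 0.1, the smallest possible).

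Of the members that trim, transport and load peptides in the endoplasmic reticulum, Tap1, Tap2, Tapbp and Erap1 rose and Tapbpl was not called by limma. Tap1 and Tap2 encode the subunits of the peptide transporter of the endoplasmic reticulum. Tap1 stood at 10.14, 10.9 and 12.8 FPKM in the Uhrf1 cKO libraries, against 3.26, 5.28 and 4.43 FPKM in the Control libraries, 2.61-fold higher (limma adjusted p = 0.000976). Tap2 stood at 11.2, 11 and 11.5 FPKM in the Uhrf1 cKO libraries, against 2.02, 3.31 and 4.52 FPKM in the Control libraries, 3.42-fold higher (limma adjusted p = 0.000778). The Uhrf1 cKO libraries were above all Control libraries for both genes, and Tap2 varied little between them. Tap1 was 90.3, 99.2 and 111% of Tap2 in the Uhrf1 cKO libraries, against 161, 159 and 98.2% in the Control libraries. These shares overlapped (exact two-sided permutation p = 0.3). Tapbp, which encodes tapasin, the bridge between the transporter and the class I molecule, stood at 60.6, 67.2 and 70.2 FPKM in the Uhrf1 cKO libraries, against 15.9, 18.9 and 22.3 FPKM in the Control libraries. The groups were 3.47-fold apart with a log2 difference of 1.75 (standard error 0.124, limma adjusted p = 1.83e-05). Erap1, the aminopeptidase that trims peptides in the endoplasmic reticulum, stood at 17.6, 19.2 and 17.5 FPKM in the Uhrf1 cKO libraries, against 9.66, 8.06 and 8.08 FPKM in the Control libraries, 2.10-fold higher (limma adjusted p = 0.000320). Tapbpl, encoding TAPBPR, a tapasin relative that edits peptides, stood at 6.47, 3.91 and 3.98 FPKM in the Uhrf1 cKO libraries, against 5.43, 9.15 and 6.97 FPKM in the Control libraries. The groups overlapped, and limma did not call the difference of -0.50 on the log2 scale (adjusted p = 0.142), while the authors' deposited table called it lower (q = 0.0385). Its interval in the table also holds Cd27 and E130112N10Rik.

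**Figure D2:**
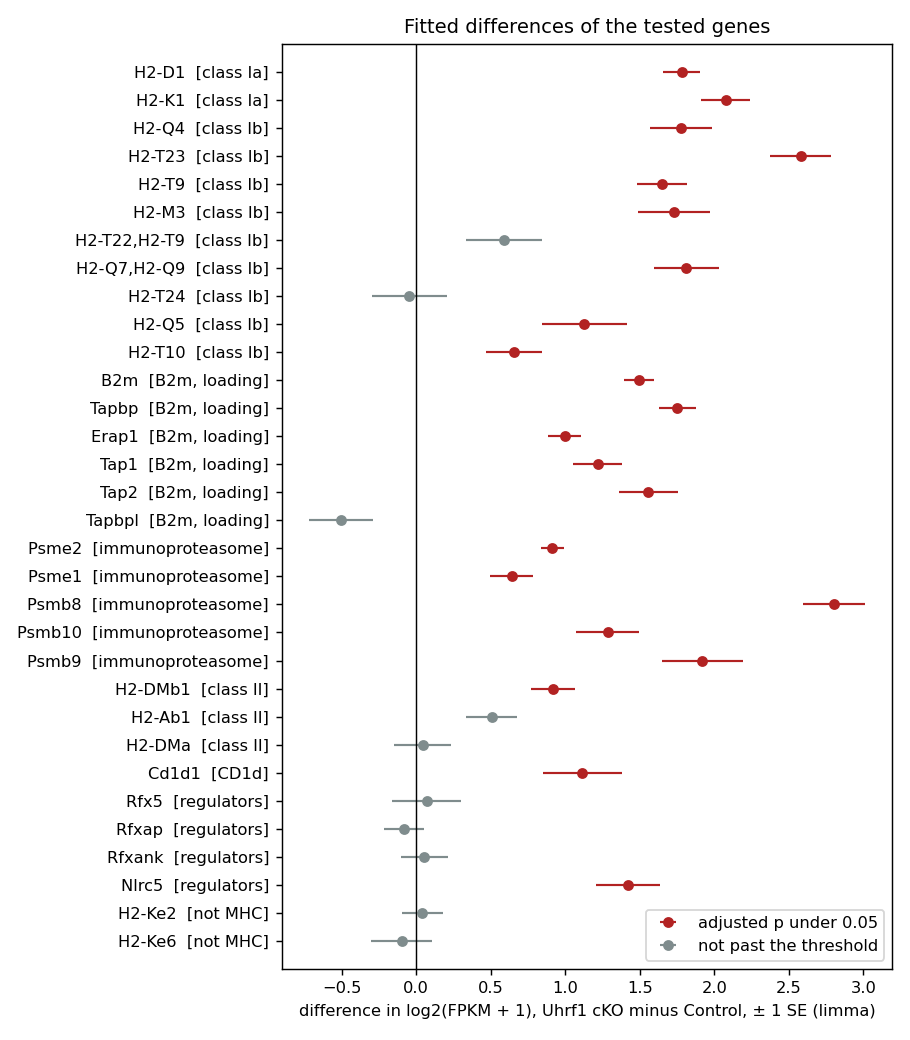
Fitted difference of each of the 32 tested members, Uhrf1 cKO minus Control, on the log2(FPKM + 1) scale with 1 standard error to each side, red where the adjusted p was under 0.05. The 22 red points lie between 0.64 (Psme1) and 2.80 (Psmb8), and Tapbpl at -0.50 is the lowest point.

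All 5 genes of the immunoproteasome and its activator rose. The inducible subunits Psmb8, Psmb9 and Psmb10 replace the catalytic subunits Psmb5, Psmb6 and Psmb7 of the standard proteasome and favour peptides that fit class I grooves. Psmb8 (chromosome 17, 34198195 to 34201454, plus strand) stood at 12.4, 13.3 and 20.1 FPKM in the Uhrf1 cKO libraries, against 0.897, 1.28 and 1.77 FPKM in the Control libraries. The highest Control library was far below the lowest Uhrf1 cKO library, and the means were 15.3 ± 4.21 FPKM in Uhrf1 cKO and 1.32 ± 0.437 FPKM in Control cells (SD, n = 3 each), 11.6-fold apart, with a log2 difference of 2.80 (standard error 0.206, limma adjusted p = 2.26e-05). Psmb9 stood at 5.19, 4.13 and 5.77 FPKM in the Uhrf1 cKO libraries, against 0.997, 0 and 0.985 FPKM in the Control libraries. Its log2 difference was 1.92 (standard error 0.273, limma adjusted p = 0.00135), and the authors' deposited table did not call it (q = 0.0842). Psmb10 stood at 9.93, 10.3 and 17.2 FPKM in the Uhrf1 cKO libraries, against 3.72, 3.98 and 5.64 FPKM in the Control libraries, 2.81-fold higher (limma adjusted p = 0.00313), with cKO 3 well above the other Uhrf1 cKO libraries.

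Set against its standard counterpart in the same library, Psmb8 was 11.6, 11.8 and 16.1% of Psmb5 in the Uhrf1 cKO libraries, against 0.882, 0.961 and 1.41% in the Control libraries. Psmb9 was 4.65, 3.32 and 4.68% of Psmb6 in the Uhrf1 cKO libraries, against 0.954, 0 and 0.733% in the Control libraries. Psmb10 was 6.20, 6.54 and 11.4% of Psmb7 in the Uhrf1 cKO libraries, against 2.28, 2.39 and 3.40% in the Control libraries. None of these shares overlapped between the groups (exact two-sided permutation p = 0.1 for each, the smallest possible, unadjusted over all ratios tested). At each catalytic position the inducible subunit had less RNA than the standard one in all 6 libraries. Psmb5, Psmb6 and Psmb7 themselves were not called (limma adjusted p = 0.795, 0.923 and 0.466), at 115 ± 8.86 FPKM in Uhrf1 cKO and 120.0 ± 16.4 FPKM in Control cells for Psmb5.

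**Figure D3:**
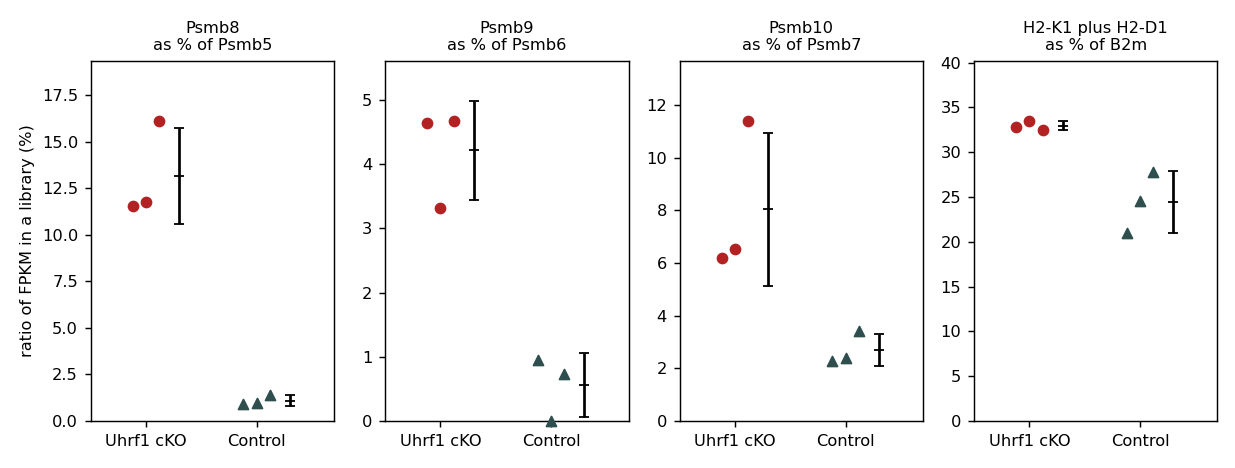
Inducible proteasome subunits as a percentage of their standard counterparts, and H2-K1 plus H2-D1 as a percentage of B2m, from FPKM values of the same library, with 1 point per library and bars for the mean and SD of 3. The Uhrf1 cKO points lie above the Control points in every panel, and Psmb8 has the widest gap, at a mean of 13.1% in Uhrf1 cKO and 1.08% in Control cells.

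Psme1 and Psme2 encode the PA28 activator, an interferon-inducible cap of the proteasome. Psme2 stood at 119, 127 and 136 FPKM in the Uhrf1 cKO libraries, against 69.6, 66.7 and 64.4 FPKM in the Control libraries, a narrow spread in both groups, and was 1.90-fold higher (limma adjusted p = 6.66e-05). Psme1 stood at 34.0, 37.6 and 34.2 FPKM in the Uhrf1 cKO libraries, against 23.5, 26.8 and 17.4 FPKM in the Control libraries, 1.56-fold higher (limma adjusted p = 0.0142), and its call was lost without cKO 2 (adjusted p = 0.0532). Emc9 lies in the table's interval for Psme1. Psme1 was 28.6, 29.7 and 25.2% of Psme2 in the Uhrf1 cKO libraries, against 33.7, 40.2 and 27.0% in the Control libraries, which overlap.

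Class II genes were low, with H2-Aa, Cd74 and Ciita at or near 0 in both groups. H2-Aa, which encodes the alpha chain of I-A, reached 0.812 FPKM in cKO 1 and was 0 in the other 5 libraries. Its partner H2-Ab1, the beta chain, stood at 6.77, 6.04 and 7.45 FPKM in the Uhrf1 cKO libraries, against 3.69, 5.93 and 3.95 FPKM in the Control libraries. The Uhrf1 cKO libraries all lay above the Control libraries, by little in the case of Control 2, and the difference was not called (limma adjusted p = 0.0718), although it was without Control 2 (adjusted p = 0.0226). Cd74, the invariant chain that guards the class II groove, stood at 0.692, 0 and 0.629 FPKM in the Uhrf1 cKO libraries, against 0, 0.320 and 0 FPKM in the Control libraries. H2-Eb1 was at most 0.448 FPKM, and H2-Eb2, H2-Ea-ps, H2-Oa, H2-Ob and H2-DMb2 were at 0 in all libraries. Ciita, the class II transactivator, was at 0.0677 FPKM in Control 2 and at 0 elsewhere.

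H2-DMb1 was the class II gene called higher. It encodes the beta chain of H2-M, which exchanges peptides on class II molecules, and stood at 6.53, 7.88 and 6.24 FPKM in the Uhrf1 cKO libraries, against 2.82, 3.63 and 3.06 FPKM in the Control libraries. The groups were 2.17-fold apart with a log2 difference of 0.92 (standard error 0.145, limma adjusted p = 0.00246). Its partner H2-DMa stood at 1.95, 1.96 and 1.11 FPKM in the Uhrf1 cKO libraries, against 1.69, 1.35 and 1.66 FPKM in the Control libraries, and these ranges overlapped (limma adjusted p = 0.902). Cd1d1, a class I-like gene that presents lipids to NKT cells, stood at 2.17, 4.45 and 5.13 FPKM in the Uhrf1 cKO libraries, against 0.749, 1.60 and 1.29 FPKM in the Control libraries. It was 3.22-fold higher with a log2 difference of 1.11 (standard error 0.264, limma adjusted p = 0.0185), a call lost without cKO 2, cKO 3 or Control 1 (adjusted p = 0.0662, 0.0766 and 0.0530).

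Among the regulators of MHC transcription, Nlrc5 rose and the RFX subunits were not called. Nlrc5 (chromosome 8, 94472763 to 94527272, plus strand), which binds class I promoters through the RFX complex, stood at 2.50, 3.14 and 4.07 FPKM in the Uhrf1 cKO libraries, against 0.460, 0.344 and 0.951 FPKM in the Control libraries. Every Uhrf1 cKO library was above every Control library, and the log2 difference was 1.42 (standard error 0.214, limma adjusted p = 0.00191). The authors' deposited table lists it as not tested. Rfx5, Rfxap and Rfxank encode the complex that binds the X element and serves class I and class II genes alike. Rfx5 stood at 7.54, 3.53 and 4.98 FPKM in the Uhrf1 cKO libraries, against 5.74, 5.14 and 3.82 FPKM in the Control libraries. Rfxap stood at 4.91, 6.17 and 4.96 FPKM in the Uhrf1 cKO libraries, against 6.13, 5.71 and 5.26 FPKM in the Control libraries, and Rfxank, which shares its interval with Nr2c2ap, at 3.21, 3.89 and 3.68 FPKM in the Uhrf1 cKO libraries, against 2.87, 4.21 and 3.27 FPKM in the Control libraries. All 3 overlapped between groups, with log2 differences of 0.071, -0.082 and 0.055 and standard errors of 0.231, 0.135 and 0.160 (limma adjusted p = 0.868, 0.731 and 0.853).

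H2-Ke2 and H2-Ke6 carry an H2 symbol because they lie in the complex, but encode a prefoldin subunit and a steroid dehydrogenase. H2-Ke2 stood at 64.0, 58.1 and 65.1 FPKM in the Uhrf1 cKO libraries, against 48.1, 63.5 and 72.9 FPKM in the Control libraries. H2-Ke6 stood at 7.37, 4.11 and 5.44 FPKM in the Uhrf1 cKO libraries, against 6.37, 4.69 and 7.07 FPKM in the Control libraries. Both overlapped between groups (limma adjusted p = 0.878 and 0.790).

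Other genes of the pathway were taken from lists of known members, and their calls are by limma unless the authors' table is named. Over all tested genes 9.81% were called higher and 7.96% lower, and the share of 1 call in a list of 14 is near these. Of 14 subunits of the standard proteasome core none rose and 1 fell, Psma3 at 94.3 ± 1.90 FPKM in Uhrf1 cKO and 115 ± 7.06 FPKM in Control cells (limma adjusted p = 0.0303, q = 0.0552 in the authors' deposited table). Of 7 proteasome assembly factors and other activators none rose and 2 fell. Pomp, the proteasome maturation protein, stood at 146 ± 5.57 FPKM in Uhrf1 cKO and 188 ± 3.32 FPKM in Control cells (limma adjusted p = 0.00618), and Psmg4 at 12.8 ± 0.182 FPKM in Uhrf1 cKO and 18.8 ± 3.66 FPKM in Control cells (limma adjusted p = 0.0370, q = 0.211 in the authors' deposited table). Of 6 general chaperones that also fold class I molecules 5 fell and none rose, led by Hspa5 (629.8 ± 23.8 FPKM in Uhrf1 cKO and 882 ± 40.6 FPKM in Control cells), Ganab and Pdia3 (limma adjusted p = 0.00126, 0.00627 and 0.0194). Calr, calreticulin, which sits in the peptide-loading complex beside tapasin, was among the 5, at 868 ± 35.1 FPKM in Uhrf1 cKO and 1066 ± 112 FPKM in Control cells (limma adjusted p = 0.0434). The authors' deposited table called Hspa5 and Ganab lower (q = 0.00652 and 0.00708), 2 of the 6, and did not call Pdia3, Calr or Canx (q = 0.0916, 0.131 and 0.159). Of 7 cytosolic peptidases Blmh fell (limma adjusted p = 0.0115) and the others were not called. The median log2 difference was -0.073, -0.37, -0.29 and -0.099 in these 4 lists, against 0.00039 over all tested genes.

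Of 7 endosomal genes that serve class II presentation, 4 rose and none fell. Lgmn, the asparagine endopeptidase legumain, stood at 126 ± 2.96 FPKM in Uhrf1 cKO and 50.1 ± 1.25 FPKM in Control cells (limma adjusted p = 3.87e-06), and the other called genes were lysosomal proteases. Ctsl stood at 261 ± 4.31 FPKM in Uhrf1 cKO and 186 ± 18.4 FPKM in Control cells and Ctsb at 146 ± 6.41 FPKM in Uhrf1 cKO and 105 ± 5.93 FPKM in Control cells (limma adjusted p = 0.00378 and 0.00261), and Ctsd was called by limma and not in the authors' deposited table (q = 0.207). Of 5 tested class I-like genes outside the H2 symbols, Mr1, which presents microbial vitamin metabolites, stood at 7.47 ± 0.664 FPKM in Uhrf1 cKO and 4.69 ± 1.03 FPKM in Control cells (limma adjusted p = 0.0326). Procr, the endothelial protein C receptor, stood at 11.8 ± 1.52 FPKM in Uhrf1 cKO and 6.81 ± 1.48 FPKM in Control cells (limma adjusted p = 0.0139), and the other 3 were not called. Among 6 tested NK ligands and co-stimulatory genes, 3 rose and none fell. The adhesion molecule Icam1 stood at 28.01 ± 1.93 FPKM in Uhrf1 cKO and 8.03 ± 0.955 FPKM in Control cells (limma adjusted p = 1.23e-05). The NKG2D ligand Ulbp1 stood at 13.9 ± 3.25 FPKM in Uhrf1 cKO and 4.35 ± 1.43 FPKM in Control cells (limma adjusted p = 0.00192). The co-stimulator Cd80 stood at 12.2 ± 0.327 FPKM in Uhrf1 cKO and 5.96 ± 0.493 FPKM in Control cells (limma adjusted p = 0.000499). Cd86 was at 0 in all libraries.

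Of 15 tested genes of interferon reception and signalling, 6 rose and none fell. Irf7, a transcription factor of the interferon response, stood at 12.9 ± 2.17 FPKM in Uhrf1 cKO and 1.18 ± 0.798 FPKM in Control cells (limma adjusted p = 0.000117). Stat2 and Irf9 encode subunits of a factor that binds the ISRE. Stat2 stood at 17.8 ± 2.78 FPKM in Uhrf1 cKO and 4.51 ± 0.644 FPKM in Control cells (limma adjusted p = 4.3e-05), and Irf9 at 30.9 ± 1.10 FPKM in Uhrf1 cKO and 9.06 ± 0.361 FPKM in Control cells (limma adjusted p = 4.16e-06). The 6 interferon ligand genes listed, Ifnb1, Ifng, Ifnl2, Ifnl3, Ifne and Ifnk, were at 0 in all 6 libraries. The list held no gene of the Ifna family. Of 6 NF-kappaB genes Nfkb2 and Nfkbia rose (limma adjusted p = 0.0131 and 0.0145), and the authors' deposited table did not call Nfkbia (q = 0.259). Of 8 partners that meet Nlrc5 or Ciita at MHC promoters or act on their chromatin, Ezh2, a Polycomb methyltransferase, fell to 20.7 ± 2.59 FPKM in Uhrf1 cKO cells, against 31.7 ± 2.91 FPKM in Control cells (limma adjusted p = 0.00709), and none rose. All SD in these lists are over 3 libraries per group.

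**Figure D4:**
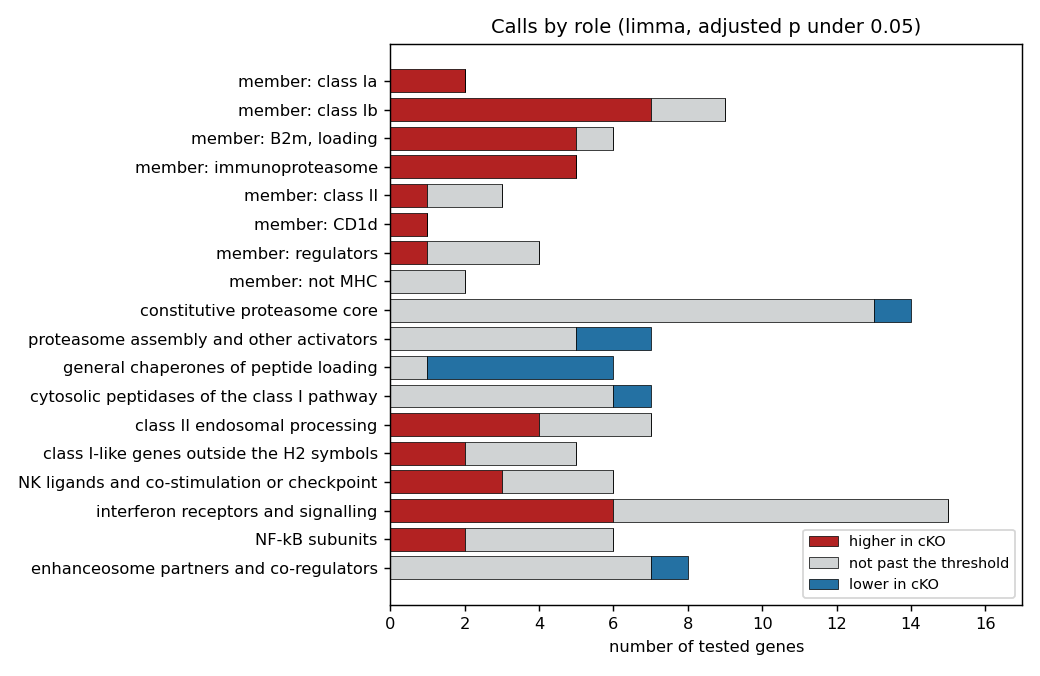
Number of tested genes called higher, not called and called lower in Uhrf1 cKO cells, for the members by role and for the other pathway lists. The calls among heavy chains, loading genes and immunoproteasome are all in the higher direction, while limma called 5 of 6 general chaperones and 1 of 14 standard proteasome subunits lower.

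Members and their neighbours in the complex were set side by side by position. On chromosome 17, 15 of 21 tested members were called higher, against 9 of 76 other tested genes between the outermost members. The share of the other genes is near the 9.81% called higher over all tested genes. Of the called members, Psmb9, H2-Q5, H2-T10 and the joint entry H2-Q7,H2-Q9 were tested only through their Uhrf1 cKO level. So were C2 and Gm11127 of the called neighbours.

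**Figure D5:**
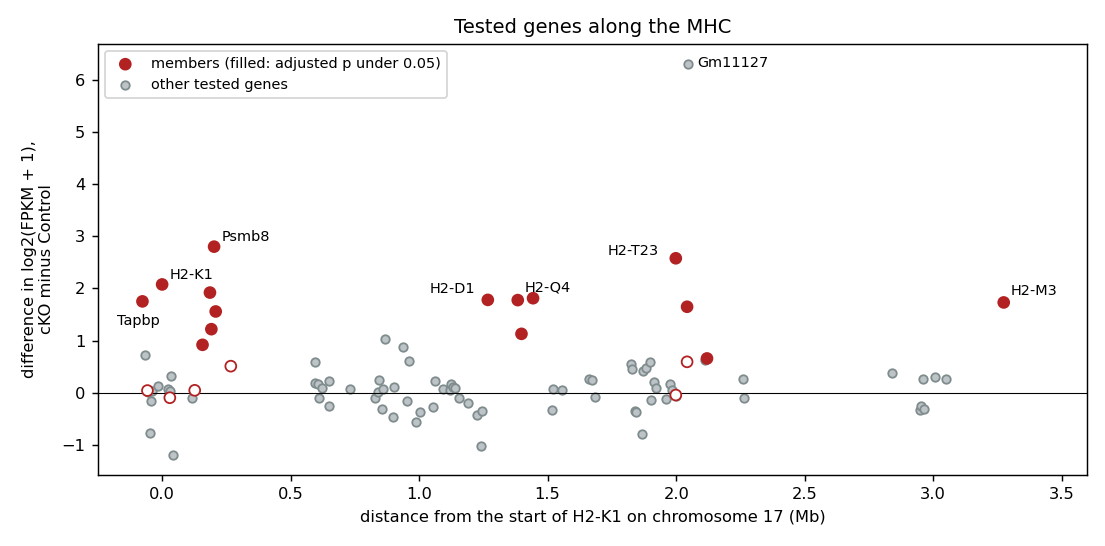
Fitted difference of each tested gene between the outermost members on chromosome 17, Uhrf1 cKO minus Control on the log2(FPKM + 1) scale, by distance from the start of H2-K1 in megabases. Most other genes lie near 0 beside members that were called higher, and Gm11127, at 6.32, lies far above all of them.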

How the data were processed

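RNA of 6 libraries was measured, 3 of Uhrf1 cKO and 3 of Control chondrocytes. Per the labels' protocols, total RNA with an integrity number over 8 went into a stranded mRNA kit. Per the submitters' processing notes, TopHat, Cufflinks and mm10 were used. Versions, annotation, strand setting and scaling were not given in the sources used here. A deposited table of 23351 entries holds an FPKM value per library and group. Its log2 fold changes, test score, p-values and q-values are those of the authors, per the file headers. Table starts were counted from 0 and are given here from 1, and 27 symbols had turned into dates.

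Since FPKM values were deposited and not counts, limma 3.58.1 (R 4.3.3, trend and robust options) was run on log2(FPKM + 1) for the 11911 genes that reached 1 FPKM in at least 2 libraries. Its p-values were two-sided and adjusted by Benjamini-Hochberg, with a threshold of 0.05, and the procedure was checked on simulated data. Differences on this scale understate the change of low genes. Folds are ratios of group means, given where the Control mean was at least 1 FPKM. All members are accounted for, and from each other list up to 3 called genes by size of difference are named. Some items are not reported here. Calr, Canx, Ctsd, Cd86, Psmb5, Psmb6 and Psmb7 were named outside this rule, as were genes of the MHC interval. So were Psmg1, Nfyb, Fcgrt, Ifi30, Ifnar2, Col2a1 and the myeloid and dendritic markers other than Fcer1g. Members and lists were chosen with earlier results of these data known. Alternatives were pseudocounts, filters, scalings, a replicate block, a Y-linked covariate, the authors' test and leaving out each library.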

Additional observations from a re-analysis of the deposited data

How the results depend on the processing

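With 2 scalings, 2 other pseudocounts, 2 other filters, a covariate for Y-linked transcript and shared entries summed, the number of members called higher stayed between 17 and 22 and none was called lower, and it was 18 at an adjusted p under 0.01 and 17 with a minimum log2 difference of 1. Leaving out each library in turn gave 18 to 21 members called higher and 0 lower. The authors' deposited test called 18 members higher and 1 lower, Tapbpl. Over all genes, an adjusted p under 0.01 gave 647 higher and 377 lower (1024 in all) and a minimum log2 difference of 1 gave 431 and 75 (506 in all), each fewer by construction. Leaving out each library gave 775 to 1089 higher, 502 to 930 lower and 1277 to 1994 in all, with 775 higher and 502 lower without cKO 3, and 598 and 629 lower without cKO 1 and without cKO 2. The replicate numbers were not taken to pair the libraries, since deviations of libraries with the same number correlated at 0.169, 0.026 and -0.044 over genes. With a replicate block, 21 members and 2097 genes were called, H2-T10 being lost (adjusted p = 0.0637). A pseudocount of 0.1 gave 21, with H2-Q5 lost (adjusted p = 0.0533). No call among the 22 changed sign. Differences that changed sign were all uncalled and near 0: Rfxank and H2-Ke6 with the Y-linked covariate (-0.036 and 0.065), H2-Ke2 after median scaling (-0.012), and, over the libraries left out in turn, Rfx5 (-0.17 to 0.29), H2-DMa (-0.039 to 0.21), Rfxank (-0.041 to 0.17), H2-Ke2 (-0.12 to 0.17), H2-T24 (-0.21 to 0.22) and H2-Ke6 (-0.28 to 0.076). The cause of these changes was not tested. Absolute depth is unknown, so members under 1 FPKM cannot be called absent.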

Other observations

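The members on chromosome 17 span 33919478 to 37483529 (mm10), and 151 other entries of the table lie between them. Of 76 of these that were tested, 9 were called higher and 7 lower, with a median log2 difference of 0.064, while 15 of the 21 tested members in the interval were called higher. Calls over all tested genes were 9.81% higher and 7.96% lower. Of 11 tested members on other chromosomes, 7 were called higher. The called members include Psmb9, H2-Q5, H2-T10, the joint entry H2-Q7,H2-Q9 and, outside the interval, Nlrc5, all tested only through their Uhrf1 cKO level. The targeted gene Uhrf1 also lies on chromosome 17 (56303321 to 56323486, GENCODE), outside this interval. Whether the chromosome near it differed in sequence between the groups was not tested. The neighbours in the interval called higher included Neu1, Ier3 and Flot1, and those called lower included Col11a2, which encodes a cartilage collagen, at 98.7 ± 12.6 FPKM in Uhrf1 cKO and 235 ± 70.9 FPKM in Control cells (SD, n = 3 each, limma adjusted p = 0.00333). Rgl2, also called higher, stood at 7.45 ± 0.208 FPKM in Uhrf1 cKO and 4.14 ± 0.749 FPKM in Control cells (limma adjusted p = 0.00757).

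A neighbour stood out and was chosen after its values were seen. Gm11127 (36042961 to 36058645 in the table, mm10), which begins just after the interval of H2-T9 and H2-T22 ends and for which the RefSeq table gives H2-K1 as a synonym, stood at 83.6, 118 and 102 FPKM in the Uhrf1 cKO libraries, against 0.268, 0.287 and 0.264 FPKM in the Control libraries. The 3 Control libraries were close to one another near 0 and the 3 Uhrf1 cKO libraries far above them, with a log2 difference of 6.32 (standard error 0.136, limma adjusted p = 2.7e-08). Gm11127 was tested only through its Uhrf1 cKO level, and the authors' deposited table did not call it (q = 0.149). Its symbol kept it outside the members, and no source used here says how reads were divided between it and the class I heavy chains.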
